A study of Drosophila melanogaster with 32 samples.

Results

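The cuticular protein genes of mated adult female Drosophila melanogaster were described from microarrays of whole flies. The probe sets were chosen by gene symbol: those annotated to a single gene whose symbol began with Cpr and a digit, Twdl, Lcp and a digit, Ccp84 or Edg and a digit. This gave 105 probe sets of 103 genes among 18769 probe sets tested, or 103 of 11983 annotated genes. Of the 105, 67 were Cpr, 24 Twdl, 11 Lcp or Ccp84 and 3 Edg probe sets.

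Flies came from 8 laboratory populations derived from the outbred LHM stock. In 4 of them, Mono1 to Mono4, females mated once per generation (monogamous), while the other 4, Prom1 to Prom4, stayed on the standard protocol (promiscuous). After 46 generations, females of each population were mated to males of their own population or of the population that bore their number in the opposite regime, and whole females were frozen 6 h later. The 16 crosses gave 32 Affymetrix Drosophila_2 arrays, 8 in each of 4 groups named by female and then male regime (M.M, M.P, P.M and P.P). No group carried an engineered allele or a drug, and the age of the flies is not given in the sources used here. Each cross had 1 array in each of 2 batches, so batch and array number within a cross cannot be told apart.

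The insect cuticle is a layered coat of chitin fibres and protein secreted by the epidermis. The Cpr, Lcp and Ccp84 proteins and some Edg proteins carry the Rebers and Riddiford chitin-binding domain, while the Tweedle (Twdl) proteins form a separate cuticular family named for a mutant with an altered body shape. Each stage lays down its own cuticle: Lcp genes were first described from larval cuticle, Edg genes from their dependence on the moulting hormone ecdysone, and the adult cuticle is mostly built in the late pupa and thickened in the first days after eclosion. Cpr66D and Cpr72Ec proteins are parts of the corneal lens of the eye.

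Values are signals on the log2 scale after robust multi-array averaging (RMA), so a difference of 1 is a doubling, and the number of arrays limits the precision. The background of each array was set at the 95th percentile of 125 odorant and gustatory receptor probe sets, genes used in few cells of a fly, and lay between 4.29 and 4.65. Female markers were present on every array: 3 yolk protein probe sets averaged 14.48 to 14.73 and 11 eggshell probe sets 8.29 to 13.78. Of 10 testis and 10 male accessory gland probe sets, 7 and 8 were above background on no array. However, 1 testis and 1 accessory gland probe set were above it on all arrays. The highest mean signal was 4.89 in the testis list and 7.06 in the accessory gland list. No array duplicated another.

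Of the cuticular protein probe sets, 47 exceeded the background on all 32 arrays, 19 on some arrays and 39 on none. The 47 are 44.8% of the 105, while 56.2% of all tested probe sets met the same criterion. Of the 18769 tested probe sets, 2259 were above background on some arrays and 5970 on none. By name, 33 of 67 Cpr, 10 of 24 Twdl, 3 of 11 Lcp or Ccp84 and 1 of 3 Edg probe sets were above background throughout. Those above it on no array were 20 Cpr, 10 Twdl, 7 Lcp or Ccp84 and 2 Edg probe sets. The count moved with the limit. It was 28 (26.7%, against 49.5% of all tested probe sets) at the 99th percentile of the receptors. With the testis and accessory gland genes as background, the count was 30 (28.6%, against 49.8%). Each of those lists held 1 probe set above the receptor background on all arrays. The count was 66 (62.9%, against 65.7%) at the 75th percentile of the receptors, and 58 (55.2%, against 61.1%) where more than 16 arrays sufficed.

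The highest signal was that of Cpr49Ae, at 11.27 on the lowest array, a median of 11.82 and 12.13 on the highest. Cpr65Au followed at 10.16, 10.58 and 10.92, and Cpr49Ab at 10.02, 10.40 and 10.81. All 3 are CPR-family genes, and all stood far above the background on each array. Mean signals were 9.02 for Cpr67B, 8.35 for Cpr100A, 8.11 for Cpr62Bb, 7.51 for Cpr47Ef, 7.23 for Cpr51A, 7.12 for Cpr92F, 6.50 for Cpr47Ea and 6.47 for Cpr62Bc. Cpr92F was the exception among them, since 1 of its 32 arrays fell below the background. Probe sets bind with different strength, so these signals do not rank the genes by transcript number.

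**Figure D1:**
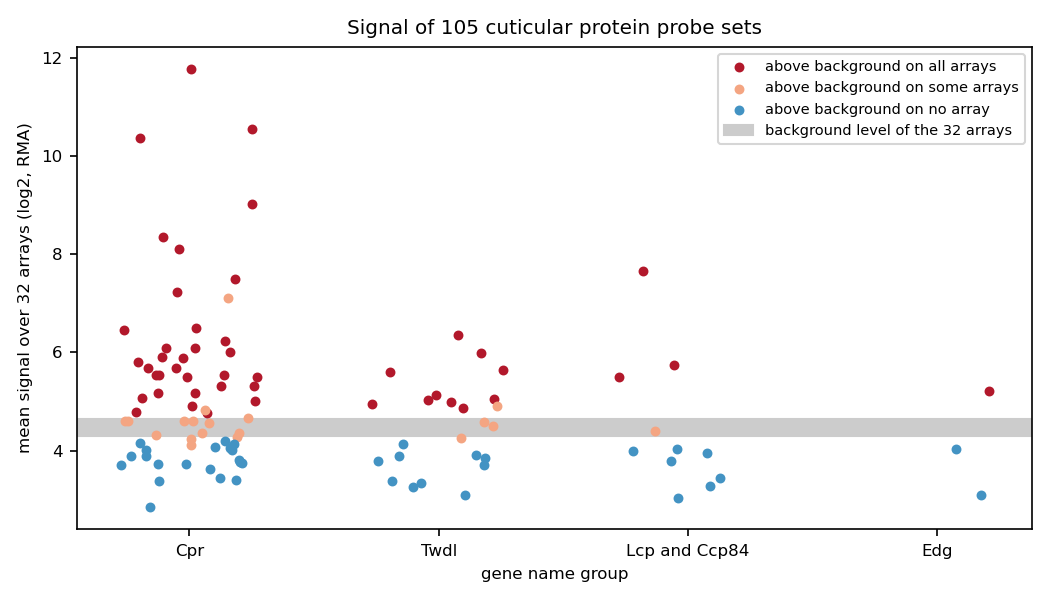
Mean signal (log2) of each of the 105 cuticular protein probe sets over 32 arrays, by gene name group, with the range of array backgrounds (4.29 to 4.65) as a grey band. The probe sets with a mean above 8 are all Cpr genes, and most Lcp and Ccp84 probe sets lie at or under the band.

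The larval and ecdysone-dependent names were mostly at the background. Lcp65Aa was the one Lcp gene above it on all arrays, at 7.43, 7.64 and 7.95 (lowest, median and highest). A second probe set annotated to Lcp65Aa, of a design that can match related transcripts, averaged 4.40 and exceeded the background on 9 arrays. Cpr47Ef likewise had a second probe set at 4.19 that passed on no array, so for these 2 genes the call depended on the probe set. Ccp84Ae (5.75) and Ccp84Ac were above background on all arrays and Ccp84Ag on none. Of the Edg genes, Edg91 averaged 5.22 and passed on all arrays, while Edg84A at 4.03 and Edg78E at 3.10 passed on none. Ccp84Ac, Ccp84Ag and the Edg genes were named after their values were seen.

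Several Tweedle genes gave moderate signals. TwdlK averaged 6.00, TwdlO 5.65, TwdlC 5.14, TwdlP 4.96 and Twdlbeta 4.87, each above background on all 32 arrays. TwdlV, at 4.58, passed on 27 arrays, and TwdlE (3.10) and TwdlS (3.26) passed on none. Of 3 corneal lens genes measured, all above background on all arrays, 2 belong to the cuticular protein set. These were Cpr66D, between 5.04 and 5.98, and Cpr72Ec, between 5.48 and 6.54.

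Many of these genes lie side by side. In the order of protein-coding genes of the RefSeq annotation (Release 6 plus ISO1 MT), 64 of the 103 genes stood in 20 runs of adjacent genes of this set. The longest run had 6 genes. Only the 103 genes were counted, so a cuticular protein gene without a single-gene probe set would break a run. The runs therefore depend on the genes the arrays cover, and clusters in the genome may be longer. All genes were above background on all arrays in 2 of the runs (Cpr47Ea with Cpr47Eb, and Cpr97Ea with Cpr97Eb) and on no array in 3, while the other 15 runs were mixed. In the 6-gene run from Lcp65Af to Lcp65Ac on chromosome 3L, Cpr65Av alone was above background on all arrays and the other 5 on none. In the 6-gene run from TwdlM to TwdlK on 3R, 4 genes passed on all arrays and TwdlB and TwdlL on none. Chromosome 3L held 39 of the genes, 3R 28, 2R 22, X 8 and 2L 6.

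Across the 8 female populations, some cuticular protein genes differed by more than the spread among arrays of a population, by up to 3.50 log2 units between population means (Cpr92F). A limma F test on all 32 arrays, with male regime and batch as terms and arrays as replicates, called 21 of the 105 probe sets at an adjusted p under 0.05. Among all tested probe sets, 20.6% were called, so the share among cuticular protein genes was near the background as a whole, though not within each class of detection. Of the 21, 17 were Cpr, 3 Twdl and 1 Lcp. By detection, 12 of the 47 probe sets above background on all arrays were called (25.5%, against 32.3% of all tested probe sets with that property). Of the 19 above it on some arrays 3 were called (15.8%, against 12.5%), and of the 39 above it on none 6 were (15.4%, against 3%). The test speaks of these 8 populations and the spread among their 4 arrays each.

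Cpr92F, a CPR-family gene on 3R, had the widest span. The 4 arrays gave 5.62, 6.36, 7.08 and 7.25 in Mono1 females, 6.64, 7.40, 7.58 and 8.00 in Mono2, 8.05, 8.11, 8.37 and 8.47 in Mono3, and 8.30, 8.48, 8.67 and 9.26 in Mono4. They gave 4.02, 5.22, 5.33 and 6.12 in Prom1 females, 6.98, 7.90, 7.92 and 8.31 in Prom2, 4.81, 6.30, 6.66 and 6.89 in Prom3, and 6.26, 7.03, 7.06 and 7.27 in Prom4. All arrays of Mono3 and Mono4 lay above all arrays of Mono1, Prom1, Prom3 and Prom4. The population means ran from 5.17 ± 0.87 in Prom1 to 8.68 ± 0.41 in Mono4 (SD, n = 4 arrays each), a span of 3.50 log2 units (adjusted p = 3.64e-07, limma F test). The lowest array of Prom1, at 4.02, was the one array not above background. Prom1 was the lowest population in each batch, at 4.62 in batch 2 and 5.72 in batch 1, while the highest was Mono3 (8.42) in batch 2 and Mono4 (8.96) in batch 1.

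Cpr62Bc, which neighbours Cpr62Bb on 3L, had population means of 6.16, 6.10, 6.73 and 7.09 in Mono1 to Mono4 and 6.05, 7.16, 5.98 and 6.46 in Prom1 to Prom4. The arrays of Prom2 (6.99 to 7.52) and Mono4 (6.88 to 7.44) lay above all arrays of Mono1, Mono2, Mono3, Prom1, Prom3 and Prom4. The span was 1.18 log2 units (adjusted p = 2.68e-05). Cpr47Ea had a similar range, with means of 6.19, 6.27, 7.02 and 6.68 in Mono1 to Mono4 and 6.22, 6.86, 5.91 and 6.83 in Prom1 to Prom4 (span 1.10, adjusted p = 2.59e-05). Its arrays in Mono3 lay between 6.90 and 7.14 and those in Prom3 between 5.78 and 6.05.

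**Figure D2:**
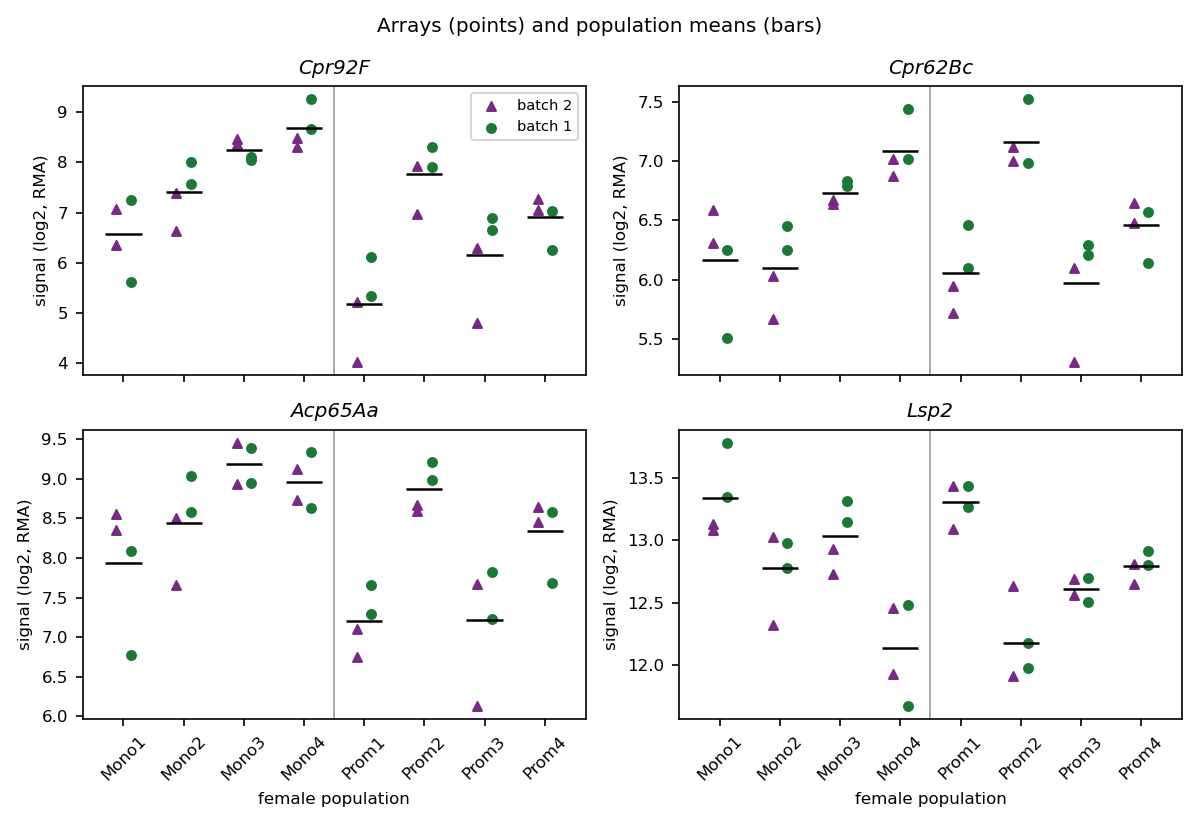
Signal (log2) on each array by female population, batch 2 left of batch 1, with population means as bars, for 2 cuticular protein genes (Cpr92F and Cpr62Bc), the adult cuticle gene Acp65Aa and the larval serum protein gene Lsp2. Cpr92F, Cpr62Bc and Acp65Aa are low in Prom1 and Prom3 and high in Mono3, Mono4 and Prom2, while Lsp2 is lowest in Mono4 and Prom2.

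The smallest p belonged to Cpr51A, where the differences were modest and the arrays of a population lay close together. Its means were 6.86, 7.33, 7.59 and 7.44 in Mono1 to Mono4 and 7.08, 6.91, 7.51 and 7.16 in Prom1 to Prom4 (span 0.73, adjusted p = 9.05e-09). The 4 arrays of Prom3 lay between 7.47 and 7.53, and those of Mono1 between 6.74 and 6.95. Cpr49Ag had another order, with Mono3 at 6.13 and Prom1 at 6.08 above the other populations, whose means lay between 5.40 and 5.65 (adjusted p = 3.42e-06).

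Among the other genes called, Cpr62Bb had means of 8.53 in Mono4 and 7.71 in Prom1 at the ends (adjusted p = 2.99e-05). Cpr100A spanned 0.93 between Prom2 and Prom1, the highest and the lowest (adjusted p = 0.000288). The adjacent genes Cpr97Ea and Cpr97Eb were both called, with spans of 0.39 and 0.66. Cpr72Ec, a lens gene, was highest in Prom3 at 6.38 and lowest in Prom2 at 5.74 (adjusted p = 0.00106), whereas the lens gene Cpr66D was not called (adjusted p = 0.0766). The remaining called probe sets above background on some or all arrays were Cpr49Ah, Cpr47Ee, Cpr49Ae, Cpr60D and Cpr67B. Cpr97Ea, Cpr49Ah, Cpr47Ee and Cpr60D were named because they were called.

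The 4 highest signals had spans of 0.32 to 0.44, against a median span of 0.23 over the 105 probe sets and 0.21 over all tested probe sets. Cpr49Ae spanned 0.40 log2 units, between 11.53 in Prom1 and 11.93 in Mono3 (adjusted p = 0.0214), and this call was lost without Mono3, Mono4 or Prom1 (adjusted p between 0.0506 and 0.0960, limma F test). Cpr67B spanned 0.44 (adjusted p = 0.0380), and its call was lost without Mono2, Prom1 or Prom2 (adjusted p between 0.0513 and 0.293, limma F test). Cpr65Au spanned 0.33 and was not called (adjusted p = 0.0744), though it was without Prom2 (adjusted p = 0.0227). Lcp65Aa was nearly flat, with means between 7.62 and 7.68.

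**Figure D3:**
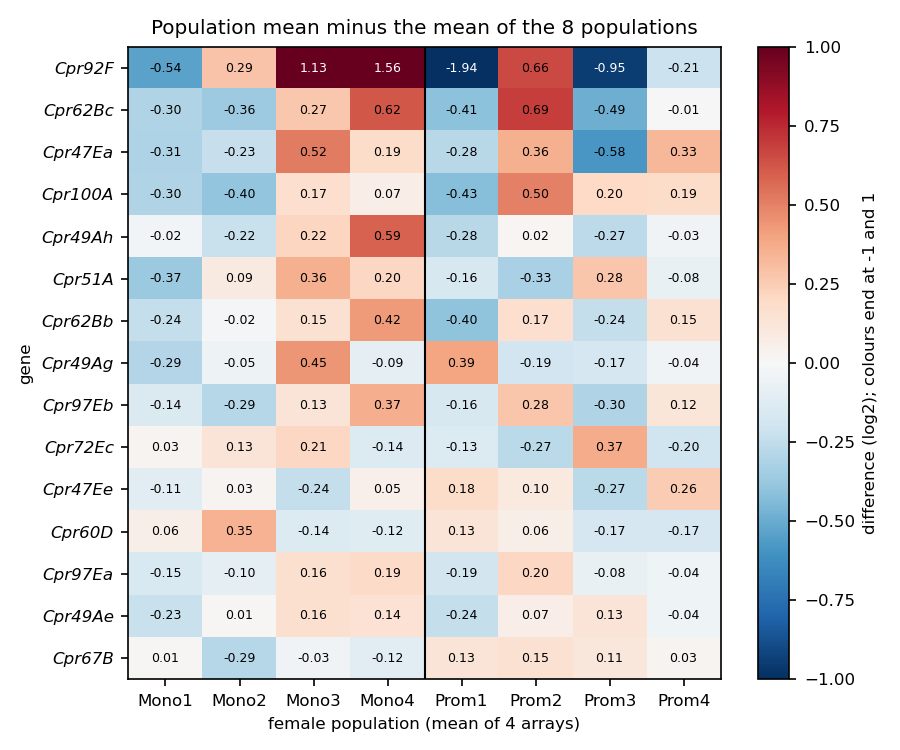
Mean of each female population minus the mean of the 8 populations (log2) for the 15 called probe sets that were above background on some or all arrays, monogamous populations left of promiscuous ones. Cpr92F ranges from -1.94 in Prom1 to 1.56 in Mono4, and the other genes stay within -0.58 and 0.69.

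The populations at the ends are given as a description. Among the 12 called probe sets above background on all arrays, Prom1 was lowest in 4 and Prom3 in 4, and Mono3 was highest in 4 and Prom2 in 4. Over all 3400 such probe sets called, Prom1 was lowest in 10% and Prom3 in 12.4%, and Mono3 was highest in 12% and Prom2 in 9.21%. The lowest population was the same in both batches for 2 of the 12 (49.2% of the 3400) and the highest for 6 of the 12 (48.4%). Mono1, Mono2 and Prom1 were highest in 0 of the 12, against 10.4%, 13.2% and 11.6% of the 3400. Mono1 and Prom1 were each among the 3 lowest in 8 of the 12, and Mono3 and Prom2 each among the 3 highest in 8. Places among the 3 lowest or 3 highest were not counted over the 3400. The highest and lowest populations therefore included both regimes.

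Another 6 called probe sets were above background on no array: TwdlE, TwdlG, TwdlN, Lcp65Ag3, Cpr49Aa and Cpr49Ac, all but TwdlE named because they were called. TwdlE had means of 3.17, 2.78, 2.89 and 3.37 in Mono1 to Mono4 and 3.32, 3.44, 2.90 and 2.90 in Prom1 to Prom4 (adjusted p = 1.39e-05). These signals lie under the background of every array. What such a probe set measures in these flies was not tested.

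Within a regime, 18 of the 105 probe sets differed among the monogamous populations (17.1%, against 13.5% of all tested probe sets) and 15 among the promiscuous populations (14.3%, against 9.88%). Both tests called 10 probe sets, which is 55.6% of the first list and 66.7% of the second. Over all tested probe sets, 966 were called by both, 38.2% and 52.1% of those lists, and the tests share a fit and its residual spread. Cpr51A had the smallest p in both (adjusted p = 1.63e-07 among monogamous and 9.82e-06 among promiscuous populations). Single populations carried some calls: Cpr51A was no longer called among monogamous populations without Mono1 (adjusted p = 0.0764), nor among promiscuous ones without Prom3 (adjusted p = 0.137). Cpr49Ag was not called among monogamous populations without Mono3 (adjusted p = 0.235), nor Cpr62Bc among promiscuous ones without Prom2 (adjusted p = 0.272). Without Mono3, 9 probe sets rather than 18 were called among the monogamous populations, and 1906 rather than 2526 of all tested probe sets. Without Mono1, Mono2 or Mono4, the cuticular calls were 12, 13 and 13, and those over all tested probe sets 1841, 1883 and 1814.

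Other genes of cuticle building were read from lists chosen by function. Of 10 probe sets for other cuticular proteins, 4 differed among the 8 populations (20.6% of all tested probe sets did, and 32.3% of those above background on all arrays, as 8 of these 10 were), and Acp65Aa, an adult cuticle protein gene, differed most. Its means were 7.94, 8.45, 9.18 and 8.96 in Mono1 to Mono4 and 7.20, 8.87, 7.21 and 8.34 in Prom1 to Prom4 (span 1.98, adjusted p = 4.68e-05). As with Cpr92F, Prom1 and Prom3 were the 2 lowest and Mono3, Mono4 and Prom2 the 3 highest. Vajk3 and Vajk2, of the Vajk gene family, were lowest in Prom3 (4.93 and 6.62), with spans of 0.84 and 0.57.

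Of 37 probe sets for chitin synthesis, assembly and turnover, 25 were above background on all arrays and 19 differed among populations, beside the same 20.6% and 32.3%. The smallest p values were those of Cda5, a chitin deacetylase gene, Cht2, a chitinase gene, and Idgf5, of a chitinase-like growth factor family. Beside the same shares, the counts were 5 of 15 for pigmentation and sclerotisation, 1 of 11 for apical matrix proteins, and 5 of 23 for ecdysis and the ecdysone response. Of the larval serum protein genes, which encode storage proteins of the larva, 1 was measured. That gene, Lsp2, had means of 13.33, 12.78, 13.03 and 12.14 in Mono1 to Mono4 and 13.31, 12.17, 12.61 and 12.80 in Prom1 to Prom4 (adjusted p = 1.83e-06). Mono4 and Prom2, the populations lowest in Lsp2, were among the 3 highest in Cpr92F, and Mono1 and Prom1, highest in Lsp2, were among the 4 lowest. Mono3 and Prom3 did not follow this opposite order: Mono3 was among the 3 highest in both genes, and Prom3 was among the 3 lowest in both. Whether the Lsp2 signal and the cuticle gene differences are linked was not tested. No probe set of these lists was called for female regime or for the mate's regime. In whole flies, fewer cells that use a gene and less RNA per cell cannot be told apart.

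No cuticular protein gene was called between the female regimes. With the population as the unit, 4 monogamous against 4 promiscuous, limma called 0 of the 105 probe sets and 0% of all tested probe sets. Under an unadjusted p of 0.05 were 5 of the 105 (4.76%), against 7.11% of all tested probe sets. The differences, monogamous minus promiscuous, had a median of -0.001, against -0.004 for all tested probe sets, and 52 of 105 were above 0.

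Cpr92F had the largest difference. Over 16 arrays each, its signal had a lowest value, median and highest value of 5.62, 8.02 and 9.26 in monogamous females, against 4.02, 6.77 and 8.31 in promiscuous females. The regimes overlapped, and the population means averaged 7.73 ± 0.93 in monogamous and 6.50 ± 1.11 in promiscuous females (SD, n = 4 populations each). The difference was 1.22 ± 0.59 log2 units (SE), with an adjusted p of 0.706 in limma. By group, Cpr92F averaged 7.62 ± 1.26 in M.M, 7.84 ± 0.61 in M.P, 6.74 ± 0.86 in P.M and 6.27 ± 1.36 in P.P (SD, n = 4 populations each), and the arrays of all 4 groups overlapped.

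Among the genes above background, Cpr67B had the smallest p. Its means were 9.03, 8.73, 8.98 and 8.90 in Mono1 to Mono4 and 9.14, 9.17, 9.13 and 9.05 in Prom1 to Prom4, so every monogamous population lay under every promiscuous one. The difference was -0.21 ± 0.06 (SE; adjusted p = 0.586, limma). Twdlbeta averaged 4.96 ± 0.11 in monogamous and 4.77 ± 0.09 in promiscuous females, with overlapping populations (adjusted p = 0.629). The other 3 probe sets with the smallest p were not above background on any array: Cpr67Fb (difference 0.17), Lcp65Ac (-0.15) and TwdlS (-0.09), each with regimes that did not overlap. In all, the regimes did not overlap in 4 of the 105 probe sets, 1 of them higher in monogamous females, while 4.08% of all tested probe sets showed no overlap.

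**Figure D4:**
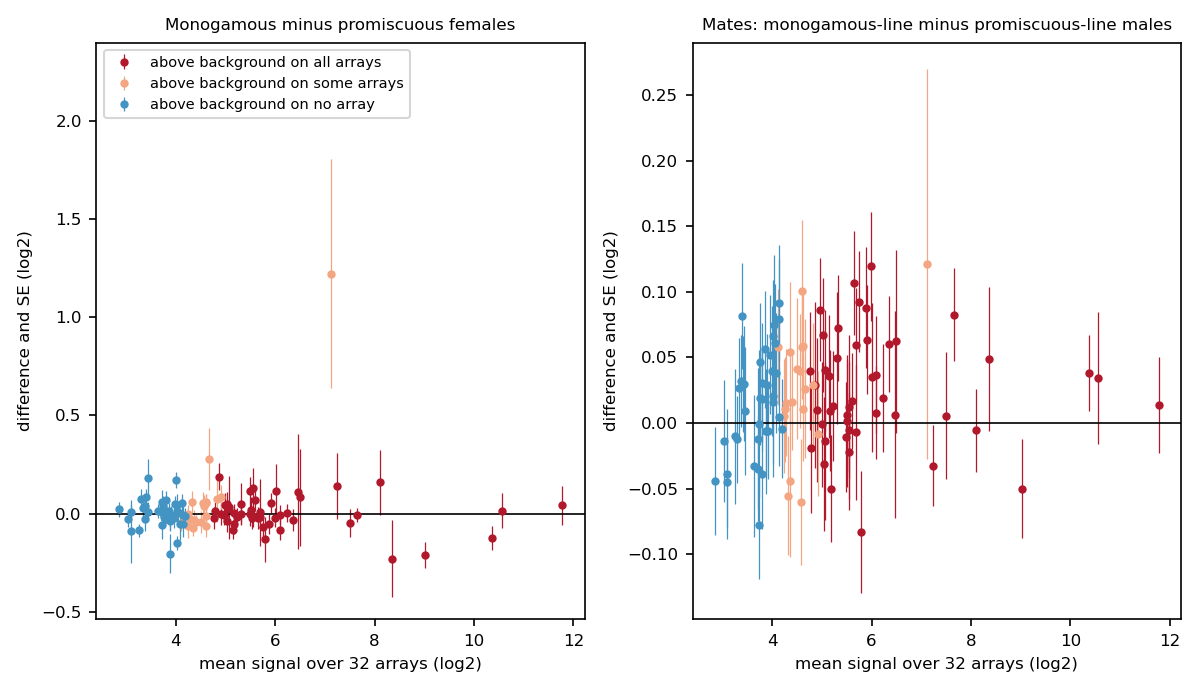
Difference (log2, with SE) against mean signal for each of the 105 probe sets: left, monogamous minus promiscuous females, and right, females mated to monogamous-line males minus females mated to promiscuous-line males, on a finer scale. The point at 1.22 on the left is Cpr92F, and no probe set in either panel had an adjusted p under 0.05.

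The regime of the mate also left no called change. In each female population a response was taken: the average after mating with monogamous-line males minus that after mating with promiscuous-line males, over 2 arrays each. These come from all 4 arrays of a population, and the 8 responses rest on 4 pairs of male populations. Limma called 0 of the 105 probe sets and 0% of all tested probe sets. Under an unadjusted p of 0.05 were 5 of the 105, against 11.0% of all tested probe sets. Averaged over the 8 populations, the responses of the probe sets lay between -0.08 and 0.12 log2 units. These means were above 0 in 72 of the 105 probe sets, against 51.3% of all tested probe sets. The count was 59 after quantile normalization, against 48.9% of all tested probe sets, and 66 after median centring, against 45.9%.

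TwdlK had the smallest p. Its responses were 0.21, 0.04, 0.21 and -0.08 in Mono1 to Mono4 and 0.09, 0.21, 0.10 and 0.17 in Prom1 to Prom4. The response was positive in all populations but Mono4, with a mean of 0.12 ± 0.04 (SE; adjusted p = 0.371, limma). TwdlO (0.11), Ccp84Ae (0.09), TwdlP (0.09) and Lcp65Aa (0.08) were the others under an unadjusted p of 0.05. TwdlK, TwdlO and TwdlP stand in one run of 6 neighbouring genes on 3R. The other genes of that run, TwdlM, TwdlB and TwdlL, were not under an unadjusted p of 0.05 for the mate's regime.

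Within monogamous females and within promiscuous females, limma called 0 of the 105 probe sets for the mate's regime, against 0% and 0.00533% of all tested probe sets. Under an unadjusted p of 0.05 were 5 of the 105 in monogamous females, against 8.46% of all tested probe sets, and 6 in promiscuous females, against 10.2%. The difference between those 2 responses (the interaction) was called in 0 of the 105 and in 0.00533% of all tested probe sets, and 4 of the 105 were under an unadjusted p of 0.05, against 7.89%. Cpr92F had the largest interaction, with responses of -1.17, -0.17, 0.08 and 0.38 in Mono1 to Mono4 and 0.99, -0.26, 0.63 and 0.49 in Prom1 to Prom4. The regimes overlapped, and the interaction was -0.68 ± 0.30 (SE; adjusted p = 0.612, limma). TwdlE at 0.25 ± 0.10 had the smallest p (adjusted p = 0.602), at signals under the background.

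Between batches, many cuticular protein probe sets were slightly lower in batch 2. Over the 16 crosses, limma called 18 of the 105 probe sets (17.1%, against 20.2% of all tested probe sets), and 17 of these were lower in batch 2, a direction called in 9.49% of all tested probe sets. The differences, batch 2 minus batch 1, were below 0 in 81 of the 105 (52.5% of all tested probe sets). Their median was -0.05, against -0.01 for all tested probe sets. After quantile normalization 69 of the 105 were below 0 and 36 above it, while 52.2% of all tested probe sets were above. After median centring 70 were below and 35 above, while 57.5% of all tested probe sets were above. The count of calls depended on scaling. After quantile normalization 10 of the 105 were called (9 lower), against 3265 of all tested probe sets (1575 lower). After median centring 11 were called (10 lower), against 4029 of all tested probe sets (1216 lower). Leaving out 1 population at a time gave 8 to 22 calls among the 105, and 2856 to 3569 among all tested probe sets.

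Cpr65Ea had a lowest, median and highest signal of 5.36, 5.56 and 5.81 in batch 2, against 5.52, 5.77 and 6.08 in batch 1. The batches overlapped, but the batch 2 array was the lower in 15 of 16 crosses, by -0.23 ± 0.05 (SE; adjusted p = 0.00163, limma). Cpr66Cb was lower in 14 of 16 crosses (-0.22, adjusted p = 0.0019) and TwdlC in 15 (-0.16, adjusted p = 0.00218). Cpr35B (-0.23, adjusted p = 0.000333) and TwdlV (-0.16, adjusted p = 0.0121) completed the 5 smallest p values, with Cpr35B above background on no array. The single probe set called higher in batch 2 was Cpr62Ba (0.16, adjusted p = 0.0251), named for that reason, while 10.7% of all tested probe sets were called higher. Cpr92F averaged 6.92 in batch 2 and 7.31 in batch 1, a difference of -0.40 ± 0.18 (SE) that was not called (adjusted p = 0.116).

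**Figure D5:**
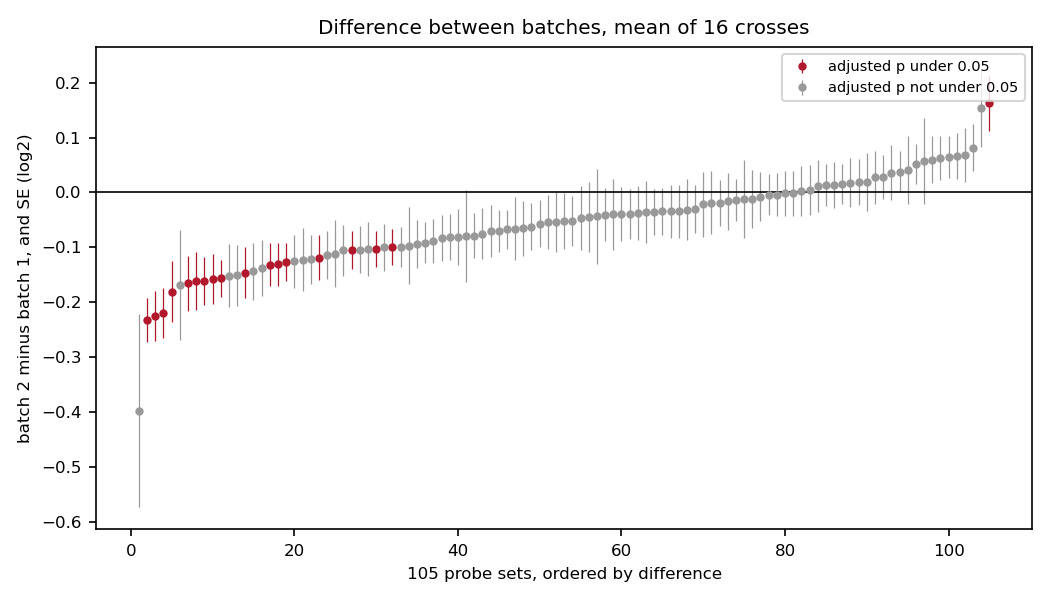
Batch 2 minus batch 1 signal (log2, mean of 16 crosses with SE) for each of the 105 probe sets in order of size, with called probe sets in red. Most points lie under 0, the lowest is Cpr92F at -0.40, and 17 of the 18 red points are negative.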

How the data were processed

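RNA of whole females was measured on 32 single-colour arrays. The deposited values are on the log2 scale and were made by the authors with RMA (affy, no version given), per the submitters' processing notes. RMA equalises the intensity distributions of arrays, so a shift shared by most genes would not show. Of 18952 probe sets, 183 controls were left out. The platform annotation, which is old, gave 1 gene to 13647 of the 18769 tested, several to 402 and none to 4720. All 105 members matched the RefSeq table, whose assembly was used only for names and gene order, and 6 further probe sets with a matching symbol among several genes were left out.

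Fits used limma 3.58.1 in R 4.3.3 (lmFit and eBayes with a trend on signal) and were two-sided. P-values were adjusted over the 18769 probe sets after Benjamini and Hochberg, with a threshold of 0.05. Female regime compared population means of 4 arrays, mate regime compared 8 population responses with female regime as a term, and batch used differences within 16 crosses. The labels describe the arrays of a cross as biological replicates. Correlations between arrays lay between 0.992 and 0.998.

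The members, gene lists and tests were chosen with earlier results of these data known. Named members were the 12 highest signals, the 8 largest SDs over population means among those above background on all arrays, the 5 smallest p values per test, genes whose probe sets disagreed, the lens genes, and others where the text says so. Named list genes were among the 3 smallest p values of a list. Alternatives were other scalings, a filter on dim probe sets, no intensity trend, single batches, arrays as samples, blocking by population number, leaving out populations and other backgrounds.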

Additional observations from a re-analysis of the deposited data

Results flagged for a closer look

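Of 128 groups of 4 values tested for a sample far from the others (Dixon's test at 95%), 3 were singled out, where chance gives about 6.4. All 3 were responses to the mate's regime, monogamous-line minus promiscuous-line males. The response of Cpr49Ae in Prom2 females was -0.13, while the other promiscuous populations lay between 0.147 and 0.155. The response of Ccp84Ae in Prom1 females was 0.0617, against 0.14 to 0.15 in the other promiscuous populations. The response of Cpr65Ea in Mono1 females was -0.0179, against 0.17 in each of the other monogamous populations.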

How the results depend on the processing

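No cuticular protein probe set was called for female regime, mate regime or interaction under any alternative run. Over all tested probe sets, calls for female regime numbered 1 in batch 1 alone, 142 with arrays as samples and 0 to 1 without 1 population. For mate regime they were 0 to 2 without 1 population, and 0 to 10 in monogamous females alone. In promiscuous females the 1 call became 0 under quantile normalization, median centring, without the dimmest 40%, with no trend, in batch 1 alone and in batch 2 alone, and 0 to 2 without 1 population. Interaction calls were 2 with median centring, 0 with no trend, 2 in batch 1 alone, 0 in batch 2 alone and 0 to 4 without 1 population. Population numbers did not clearly pair the populations (correlations of deviations 0.13, 0.07, 0.19 and 0.02, the highest for the shared number in 3 of 4). With the replicate block, calls were 13 for mate regime, 2 in promiscuous females and 0 for interaction, and no cuticular protein probe set was among them. Tests within a batch, chosen after seeing the data, have 2 arrays per population. In batch 1 and batch 2, the 8-population test called 1293 and 1788 probe sets, 8 and 12 of them cuticular. Among monogamous populations it called 838 and 1081 (8 and 7 cuticular, and 9 to 18 without 1 population), and among promiscuous ones 479 and 727 (2 and 9 cuticular). Over all tested probe sets, leaving out 1 population gave 1814 to 2512 calls among monogamous populations. Among promiscuous populations it gave 1043 to 1980, the fewest without Prom3. Cuticular batch calls were 10 with quantile normalization, 11 with median centring and 8 to 22 without 1 population, being 11 without Mono1, 8 without Mono3, 11 without Prom1 and 9 without Prom2. Over all tested probe sets, batch calls were 3265 with quantile normalization, 4029 with median centring and 2856 to 3569 without 1 population. Probe sets above background numbered 28 and 30 with the other backgrounds. For single members, 664 values were unchanged, which includes those called in neither fit, while 27 lost a call and 2 gained one. No difference changed sign. In batch 1 alone the 8-population calls of Cpr100A (adjusted p = 0.127), Cpr49Ag (0.0670), Cpr97Eb (0.0524), Cpr72Ec (0.0677) and TwdlE (0.180) were lost, and in batch 2 alone those of Cpr49Ae (0.0567) and Cpr67B (0.294). Cpr67B also lost its call with no trend (0.0549) and with a mean for each cross (0.0842).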
